A study of Homo sapiens with 3 samples.

Results

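The genes examined were NT5E and 7 other genes that make, degrade or sense adenosine outside the cell, namely ENTPD1, ENTPD2, ADA, DPP4, ADORA1, ADORA2A and ADORA2B. They were taken by symbol from the deposited expression values of 3 hepatocellular carcinoma (HCC) cell lines, and are 8 genes where 16149 were listed in at least 1 library. Of these, 7 were listed in every library, all 7 with a mean level of at least 1 RPKM, and ADORA1 was listed in none. RPKM counts the reads of a gene per kilobase of length and scales them to the size of the library.

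Messenger RNA was sequenced from 3 cultured lines of 1 lineage, with 1 library each. The parent is HCCLM3, a human HCC line, in the labels, and HCCLM3-R, its derivative that carries red fluorescent protein, in the study's methods. The labels give the parent a low metastasis ability, whereas the methods give HCCLM3-R a high one. Subclone 1 is labelled as more metastatic with a preference for the lung, and subclone 2 as metastatic to both lung and celiac lymph node. Both subclones were labelled HCCLM3 as well, and in the methods such subclones were grown from single cells of metastases that HCCLM3-R had formed in nude mice. All 3 lines were grown in DMEM, and each subclone stands for 1 clone beside a mixed parent. With 1 library per line there is no replicate, no test between lines was possible, and every interval below covers counting error only.

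Extracellular ATP and ADP are cut to AMP by the ectonucleoside triphosphate diphosphohydrolases ENTPD1 (CD39) and ENTPD2. NT5E (CD73), an enzyme held on the cell surface by a lipid anchor, cuts AMP to adenosine, which then acts on 4 G protein-coupled receptors or is turned into inosine by adenosine deaminase (ADA). In humans DPP4 (CD26), a surface peptidase, also binds ADA and holds it at the membrane. In liver, CD73 is known on hepatocytes and CD39 mainly on endothelial and immune cells.

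CD73 was among the genes for which the study listed real-time PCR primers. From its candidates the study kept SPARC, ANGPTL4, VCAM1 and ITGA1, whose mRNA was raised past a set fold in most monoclonal lines. CD73 was not among those kept. The CD73 primer sequences are shown because they mark the part of NT5E that such an assay reads. Capitals mark the forward primer, the reverse primer as listed, and, in the product, the bases that the primers cover.

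CD73-F: AAGGACTGATCGAGCCACTC

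CD73-R: GGAAGTGTATCCAACGATTCCCA

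NT5E product: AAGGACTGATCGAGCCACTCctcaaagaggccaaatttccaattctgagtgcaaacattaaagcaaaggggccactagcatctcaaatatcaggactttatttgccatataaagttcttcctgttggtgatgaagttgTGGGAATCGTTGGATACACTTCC

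Both primers matched without a mismatch in 3 of the 5 NT5E transcripts of GENCODE and in no transcript of another gene. The product of 161 bases lies on the plus strand of GRCh38 at chr6:85467094-85467254, within exon 2 and wholly in coding sequence. No exon junction lies between the primers, and the product is the same in the 3 transcripts.

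NT5E had the highest level of these genes in both subclones, and in the parent it was not separated from DPP4. Its level was 32.4 RPKM in the parent (595 reads, 95% Poisson interval 29.9 to 35.2), 39.1 RPKM in subclone 1 (736 reads, 36.3 to 42) and 57.1 RPKM in subclone 2 (1103 reads, 53.8 to 60.6). The 3 intervals did not overlap, with the parent lowest and subclone 2 highest. NT5E was 1.76-fold higher in subclone 2 than in parental cells (Clopper-Pearson 95% interval 1.59 to 1.95) and 1.46-fold higher in subclone 2 than in subclone 1 (1.33 to 1.61). The difference between subclone 1 and the parent was smaller, at 1.205-fold (1.08 to 1.34), and when the libraries were divided by ACTB it was 1.099-fold with an interval of 0.985 to 1.23 that held 1. Among the listed genes of each library NT5E ranked 2350 of 14703 in the parent, 1943 of 14900 in subclone 1 and 1293 of 14931 in subclone 2. Its log2 ratio lay at the 73.6th percentile of all genes with a mean of at least 1 RPKM for subclone 1 over the parent, at the 92.3rd for subclone 2 over the parent and at the 94.7th for subclone 2 over subclone 1. NT5E maps to chromosome 6 of GRCh38 (85449584 to 85495791, plus strand), and no other annotated gene shares its exons.

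**Figure D1:**
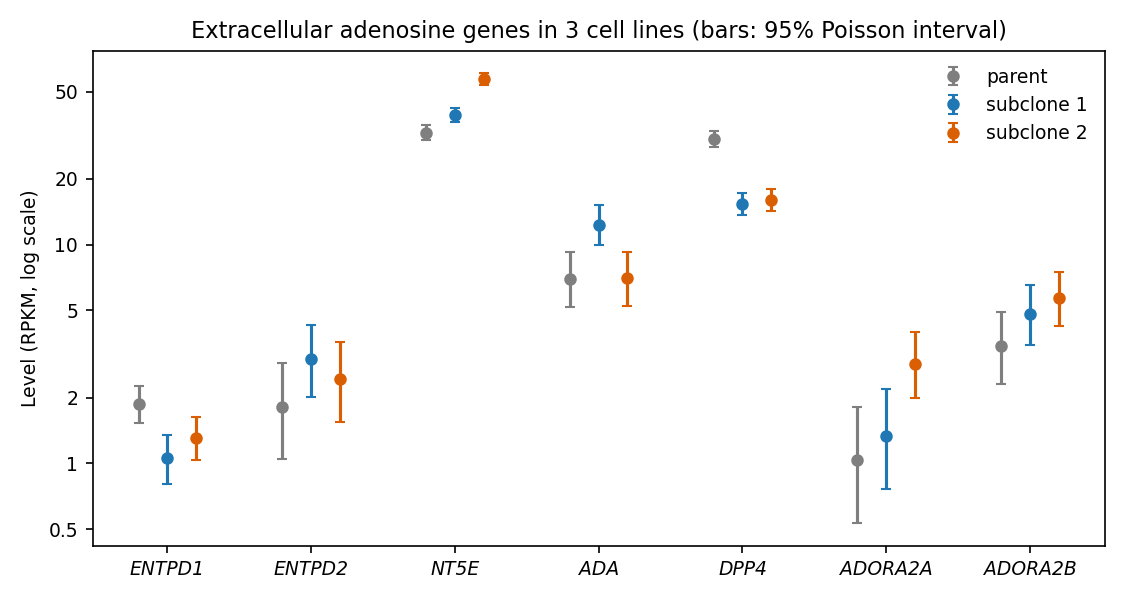
Level of the 7 listed extracellular adenosine genes in the parent, subclone 1 and subclone 2 (RPKM, log axis). Points are the single library of each line and bars are exact 95% Poisson intervals on its reads. NT5E stands at 32.4, 39.1 and 57.1 RPKM, DPP4 stands at 30.5 RPKM in the parent and at 15.4 and 16.0 RPKM in the subclones, and the receptors and ENTPD genes lie below 6 RPKM.

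The ATP- and ADP-hydrolysing enzymes upstream of NT5E were expressed at far lower levels, and of these only ENTPD1 had folds whose intervals excluded 1. ENTPD1, which removes both phosphates in turn, stood at 1.87 RPKM in the parent (107 reads), 1.06 RPKM in subclone 1 (62 reads) and 1.31 RPKM in subclone 2 (79 reads). The parent was thus highest. ENTPD1 was 0.564-fold in subclone 1 (0.406 to 0.779) and 0.701-fold in subclone 2 (0.518 to 0.947), each relative to the parent, and the 2 subclones differed by 1.24-fold with an interval that held 1 (0.880 to 1.76).

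ENTPD2, which prefers ATP over ADP, stood at 1.80 RPKM in the parent (17 reads), 3.00 RPKM in subclone 1 (29 reads) and 2.42 RPKM in subclone 2 (24 reads). These counts did not separate any pair of lines. The fold was 1.66 for subclone 1 over the parent (0.883 to 3.22), 1.34 for subclone 2 over the parent (0.691 to 2.66) and 0.807 for subclone 2 over subclone 1 (0.450 to 1.44), so that a difference as large as 2.66-fold between subclone 2 and the parent lay within counting error.

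The level of ENTPD1 rests on the gene length behind its RPKM. The values give whole reads at a length of 12740 bases, longer than the longest coding GENCODE transcript of 5044 bases, and the RefSeq gene ends 7571 bases beyond the GENCODE gene. On 5044 bases the same reads would be 4.73, 2.67 and 3.32 RPKM in the parent, subclone 1 and subclone 2, which puts ENTPD1 above ENTPD2 in the parent and in subclone 2. The folds between lines do not depend on this length. ENTPD1 (chromosome 10, 95711779 to 95869695, plus strand) shares 454 exon bases with its antisense gene and 173 with another annotated gene of the same strand, whereas ENTPD2 (chromosome 9, 137048098 to 137054045, minus strand) shares none with another gene. The kit and the counting were not described as keeping strand, so reads from an antisense partner cannot be told apart.

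Together, the 3 ectonucleotidases reached 36.1 RPKM in the parent, 43.1 RPKM in subclone 1 and 60.9 RPKM in subclone 2, and NT5E made up 89.8%, 90.6% and 93.9% of these sums. The sum of ENTPD1 and ENTPD2 alone lay between 3.67 and 4.05 RPKM on the deposited scale. With ENTPD1 on 5044 bases it would be 6.53 RPKM for the parent, 5.66 RPKM for subclone 1 and 5.73 RPKM for subclone 2, highest in the parent, and the share of NT5E would be 83.3%, 87.3% and 90.9%. The level of NT5E was 17.3 times that of ENTPD1 in the parent, 37.0 times in subclone 1 and 43.5 times in subclone 2, on the deposited scale. This ratio was 2.14-fold higher in subclone 1 (95% interval 1.52 to 3.02) and 2.51-fold higher in subclone 2 (1.83 to 3.46) than in the parent. A ratio of 2 genes of the same library is free of the scale of the library.

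ADA and DPP4, the pair that removes adenosine and anchors the enzyme that does so, differed between lines in different ways. ADA stood at 6.97 RPKM in the parent (49 reads), 12.3 RPKM in subclone 1 (89 reads) and 7.03 RPKM in subclone 2 (52 reads). Subclone 1 was high and the other lines were close. ADA was 1.77-fold higher in subclone 1 than in parental cells (1.23 to 2.56), 0.570-fold in subclone 2 relative to subclone 1 (0.397 to 0.811) and 1.01-fold in subclone 2 relative to the parent (0.669 to 1.52). The sign of the last of these log2 ratios changed with the scaling, over a range of -0.03 to 0.07.

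ADA maps to chromosome 20 (44619522 to 44652233, minus strand), and shares 46 of its 2852 exon bases with PKIG on the opposite strand, an inhibitor of protein kinase A. PKIG had the same order of levels, with 8.71 RPKM in the parent, 12.8 RPKM in subclone 1 and 8.85 RPKM in subclone 2. The part of shared reads in both patterns was not tested.

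DPP4 stood at 30.5 RPKM in the parent (535 reads, 27.9 to 33.2), 15.4 RPKM in subclone 1 (277 reads, 13.6 to 17.3) and 16.0 RPKM in subclone 2 (295 reads, 14.2 to 17.9). The parent was high and the intervals of the 2 subclones overlapped. DPP4 was 0.504-fold in subclone 1 (0.435 to 0.584) and 0.524-fold in subclone 2 (0.453 to 0.605) relative to the parent, and 1.04-fold in subclone 2 relative to subclone 1 (0.879 to 1.23). Its log2 ratios to the parent of -0.98 and -0.93 fell just short of 2-fold lower, and subclone 1 passed it under division by ACTB, at -1.12, and by GAPDH, at -1.04. DPP4 maps to chromosome 2 (161992241 to 162074542, minus strand), and shares 172 exon bases with an antisense gene.

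NT5E and DPP4 were level in the parent, with an NT5E level 1.07 times that of DPP4 (0.946 to 1.20), and apart in both subclones, at 2.55 times (2.21 to 2.93) in subclone 1 and 3.58 times (3.15 to 4.09) in subclone 2. The ratio of NT5E to DPP4 was therefore 2.39-fold higher in subclone 1 (1.99 to 2.88) and 3.36-fold higher in subclone 2 (2.82 to 4.02) than in the parent. It was also 1.41-fold higher in subclone 2 than in subclone 1 (1.16 to 1.71). This ratio combines the folds already given for NT5E and DPP4 and is not separate support for them.

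The ratio of NT5E to ADA, the enzymes that make and remove adenosine, went opposite ways in the 2 subclones. Its value was 4.65 in parental cells, 3.17 for subclone 1 and 8.13 for subclone 2. Relative to the parent it was 0.681-fold in subclone 1 (0.463 to 0.994) and 1.75-fold in subclone 2 (1.14 to 2.67), and it was 2.57-fold higher in subclone 2 than in subclone 1 (1.78 to 3.73). The level of ADA per DPP4 was 0.229 in parental cells, and the subclones followed with 0.803 for subclone 1 and 0.441 for subclone 2.

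**Figure D2:**
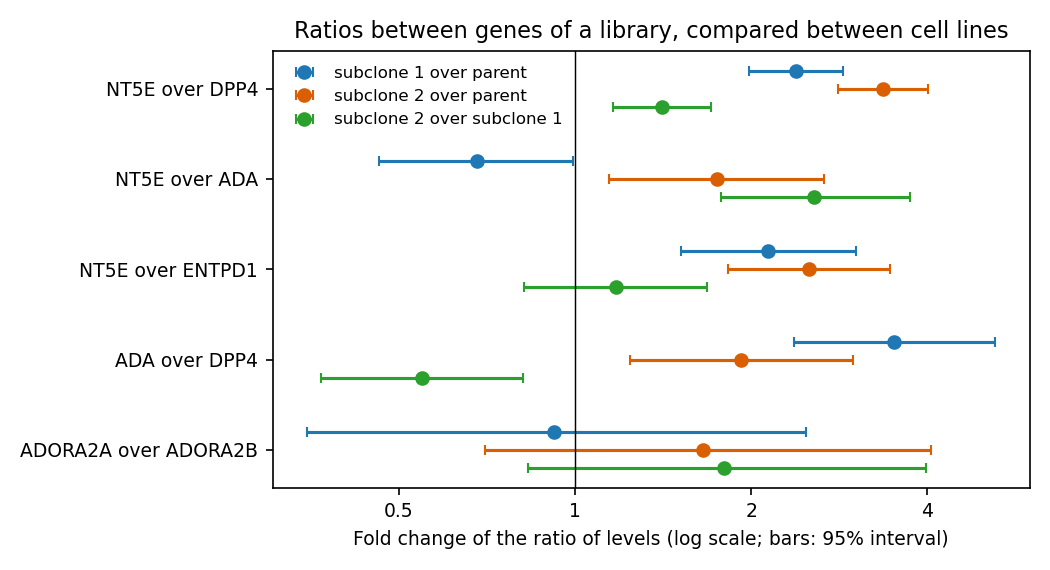
Fold change, between cell lines, of the ratio of levels of 2 genes measured in the same library (log axis, bars are 95% intervals from reads). NT5E over DPP4 lies above 1 in all 3 comparisons, whereas NT5E over ADA is 0.681 for subclone 1 and 1.75 for subclone 2, each over the parent.

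Of the adenosine receptors, ADORA2B and ADORA2A were listed, and ADORA1 was not. ADORA2A and ADORA2B raise cyclic AMP through the stimulatory G protein, ADORA2B at higher adenosine concentrations, whereas ADORA1 and ADORA3 act through inhibitory G proteins. ADORA2B stood at 3.43 RPKM in the parent (29 reads), 4.83 RPKM in subclone 1 (42 reads) and 5.73 RPKM in subclone 2 (51 reads). It was 1.67-fold higher in subclone 2 than in parental cells (1.04 to 2.73), while the 1.41-fold of subclone 1 over the parent (0.858 to 2.35) and the 1.19-fold between subclones (0.772 to 1.83) had intervals that held 1. ADORA2B maps to chromosome 17 (15944917 to 15975746, plus strand).

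ADORA2A stood at 1.03 RPKM in the parent (12 reads), 1.34 RPKM in subclone 1 (16 reads) and 2.86 RPKM in subclone 2 (35 reads). Subclone 2 was high, at 2.77-fold over the parent (1.40 to 5.86) and 2.13-fold over subclone 1 (1.15 to 4.13), and subclone 1 over the parent was 1.30-fold (0.576 to 3.01). ADORA2A was the only one of these genes that passed 2-fold, with log2 ratios of 1.39 and 1.04, and with a pseudocount of 1 in place of 0.1 these were 0.93 and 0.72 and no longer passed. ADORA2A (chromosome 22, 24417879 to 24442360, plus strand) shares 2380 of its 4193 exon bases with the readthrough gene SPECC1L-ADORA2A and 285 with its antisense gene, neither of which was listed in the files, so its reads may come from more than 1 of these transcripts. SPECC1L, the gene at the start of the readthrough, stood at 5.54, 4.95 and 6.39 RPKM in the parent, subclone 1 and subclone 2.

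ADORA1 (chromosome 1, 203090654 to 203167405, plus strand) had no listed value in any library, and neither did ADORA3. A count of 3 reads would be 0.196 to 0.301 RPKM in the parent on coding transcripts of 3407 to 2219 bases, 0.191 to 0.293 RPKM in subclone 1 and 0.186 to 0.286 RPKM in subclone 2. The listed receptors summed to 4.46 RPKM in the parent, 6.17 RPKM in subclone 1 and 8.59 RPKM in subclone 2, and ADORA2B made up 76.9%, 78.3% and 66.7% of these sums. The ratio of ADORA2A to ADORA2B was 0.301, 0.277 and 0.4995, and its change between subclone 2 and the parent, at 1.66-fold, was within counting error (0.702 to 4.06).

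The order of levels within a library, per length, began with NT5E and DPP4, which did not differ in the parent. There it went on with ADA, then ADORA2B, then ENTPD1, ENTPD2 and ADORA2A, and neighbours among these last 3 did not differ beyond counting error. On 5044 bases ENTPD1, at 4.73 RPKM, would stand above ADORA2B in the parent. In subclone 1 NT5E stood alone, DPP4 was not separated from ADA (1.25 times, 0.978 to 1.60), and neither ADORA2B from ENTPD2 nor ADORA2A from ENTPD1. In subclone 2 NT5E and DPP4 stood alone in this order, ADA was not separated from ADORA2B (1.23 times, 0.818 to 1.84) nor ADORA2A from ENTPD2, and ENTPD1 was last on the deposited scale.

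Against the background of all genes, few of the 7 listed genes passed 2-fold, while more had counting intervals that excluded 1. In subclone 1 over the parent none was at least 2-fold higher or lower, where 4.90% of 11370 genes were higher and 1.82% lower. The interval of the fold lay above 1 for 2 of 7 (NT5E and ADA) and below 1 for 2 of 7 (ENTPD1 and DPP4), beside 19.9% and 19.0% of the 11331 genes with whole reads. In subclone 2 over the parent 1 of 7 was at least 2-fold higher (ADORA2A, beside 5.33% of genes) and none lower (beside 2.16%). There the interval lay above 1 for 3 of 7 (NT5E, ADORA2A and ADORA2B, beside 22.6%) and below 1 for 2 of 7 (ENTPD1 and DPP4, beside 17.9%).

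In subclone 2 over subclone 1, ADORA2A alone passed 2-fold (beside 1.42% of genes higher and 1.39% lower), and the interval lay above 1 for NT5E and ADORA2A (beside 11.5%) and below 1 for ADA (beside 8.45%). The median log2 ratio of the 7 genes was 0.35, 0.40 and 0.24 in the 3 comparisons in this order, beside 0.00426, 0.0373 and 0.0338 over all genes. The comparisons with the parent share the parent library, and the subclone libraries are each used in 2 comparisons, so these counts are not independent of each other. Under the 5 other scalings of the libraries, 11 of the 12 intervals that excluded 1 still did, with NT5E in subclone 1 over the parent as the exception.

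**Figure D3:**
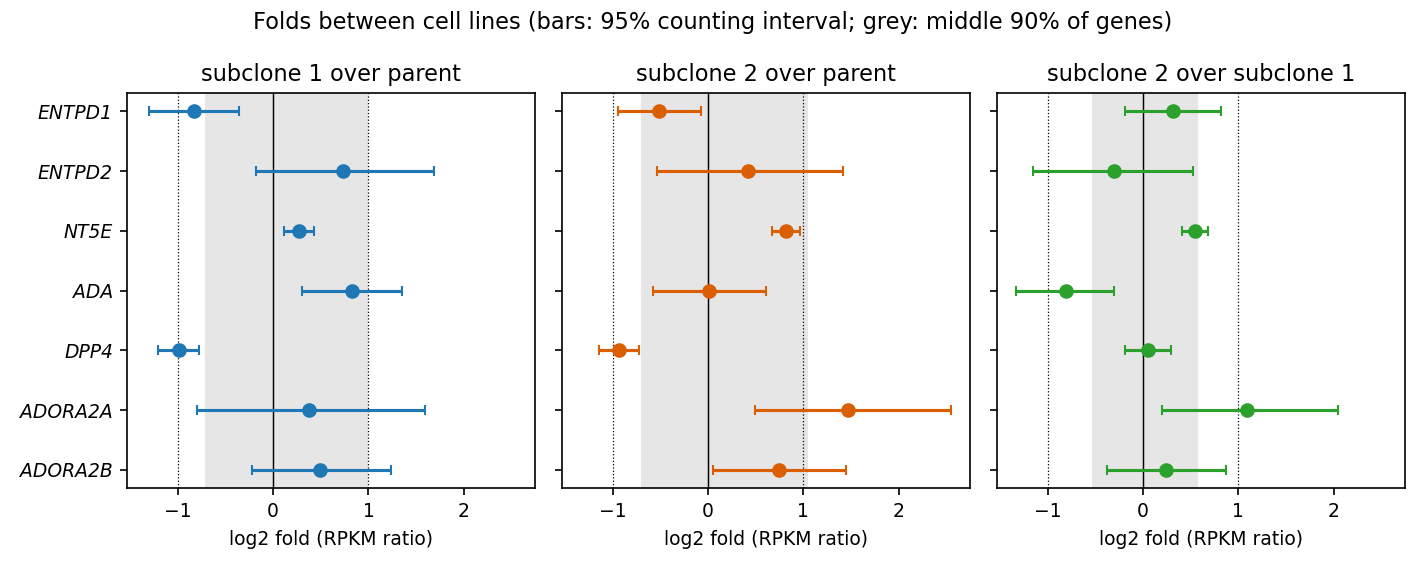
Log2 fold of the RPKM between cell lines for the 7 listed genes, with exact 95% counting intervals as bars, a grey band for the middle 90% of the genes with a mean of at least 1 RPKM and dotted lines at 2-fold. DPP4 lies at about 0.5-fold in both subclones, and ADORA2A passes 2-fold in subclone 2.

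The other genes of the pathway were read from lists of ATP release channels, nucleotidases, adenosine metabolism, transporters, receptors and signalling genes. Of 8 genes for the release of ATP, 6 had a mean of at least 1 RPKM. In subclone 2 over the parent, where 5.33% of all genes were at least 2-fold higher, 2 of the 6 were. These were GJB2, the channel protein connexin 26, with 1.14, 1.85 and 2.98 RPKM in the parent, subclone 1 and subclone 2 (2.61-fold, 1.32 to 5.56), and ABCC6, a transporter known to mediate ATP release in liver, with 0.609, 0.974 and 1.49 RPKM (2.44-fold, 1.29 to 4.90). LRRC8A, a subunit of the volume-regulated anion channel and the highest of this list, stood at 23.4, 22.2 and 26.5 RPKM. The list median was -0.06 for subclone 1 and 0.16 for subclone 2 over the parent.

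Of 11 other ectonucleotidases only ENPP1 reached a mean of 1 RPKM. ENPP1, which cuts ATP directly to AMP and pyrophosphate and so bypasses the ENTPD enzymes, stood at 0.988 RPKM in the parent, 1.02 RPKM in subclone 1 and 2.79 RPKM in subclone 2. It was 2.82-fold higher in subclone 2 than in parental cells (1.88 to 4.32) and 2.73-fold higher than in subclone 1 (1.84 to 4.14). Among 9 measured nucleotidases that act inside the cell or its organelles, only ENTPD5, a nucleoside diphosphatase of the endoplasmic reticulum, passed 2-fold. It stood at 11.1, 16.3 and 28.0 RPKM (2.52-fold for subclone 2 over the parent, 2 to 3.19). In that comparison 5.33% of all genes were at least 2-fold higher. CANT1, a calcium-activated nucleotidase of the Golgi and the highest of that list, stood at 42.9, 41.9 and 46.7 RPKM.

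In adenosine and inosine metabolism no gene of 11 passed 2-fold in any comparison. In each comparison and direction between 1.39% and 5.33% of all genes did. For subclone 1 over the parent 3 had intervals above 1 and 4 below 1 (beside 19.9% and 19.0% of all genes). For subclone 2 over the parent these were 2 and 3 (beside 22.6% and 17.9%). A list of 11 genes is too small to tell these counts from the shares of all genes. HPRT1, the salvage enzyme of hypoxanthine and the highest of the list, stood at 141, 117 and 125 RPKM. Chosen after its values were seen, PNP, which splits the inosine that ADA makes, stood at 23.5 RPKM in the parent, 15.9 RPKM in subclone 1 and 22.7 RPKM in subclone 2, so that it was lower (0.678-fold, 0.557 to 0.824) in the line in which ADA was higher. Adenosine kinase (ADK), chosen in the same way, stood at 10.03, 9.20 and 9.80 RPKM, and its intervals held 1 in all 3 comparisons.

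Nucleoside transporters carry adenosine across membranes, and 4 of 5 measured ones had an interval above 1 in subclone 2 over the parent (beside 22.6% of all genes), with a list median of 0.59. One of the 4, SLC29A4, had an interval of 1.002 to 3.05, which became 0.977 to 2.97 when the ratios were centred on the median of all genes. SLC28A2, a sodium-coupled transporter that prefers purine nucleosides, stood at 3.44, 3.61 and 7.73 RPKM in the parent, subclone 1 and subclone 2, or 2.25-fold higher in subclone 2 than in parental cells (1.52 to 3.38). SLC29A4, which carries monoamines as well as adenosine, stood at 3.37, 9.99 and 5.82 RPKM and was 2.97-fold higher in subclone 1 (1.81 to 5.04). SLC29A3, the equilibrative transporter of lysosomes and the highest of the list, stood at 30.4, 40.7 and 45.4 RPKM, or 1.49-fold higher in subclone 2 than in parental cells (1.29 to 1.73).

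P2 receptors sense the nucleotides before they are cut to adenosine, and 4 of 15 reached a mean of 1 RPKM. P2RX4, an ATP-gated channel and the highest of them, stood at 15.9, 21.2 and 21.7 RPKM. P2RX5, also an ATP-gated channel, stood at 2.38, 1.11 and 1.54 RPKM and was 0.467-fold in subclone 1 relative to the parent (0.214 to 0.966), from 25 and 12 reads.

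Of 19 G protein and adenylyl cyclase genes, 14 were measured at a mean of at least 1 RPKM, and GNAI1 alone passed 2-fold. Over all genes 4.90% were at least 2-fold higher for subclone 1 and 5.33% for subclone 2, each over the parent. GNAI1, an inhibitory alpha subunit, stood at 7.86 RPKM in the parent, 22.0 RPKM in subclone 1 and 23.2 RPKM in subclone 2, or 2.81-fold (2.27 to 3.49) and 2.95-fold (2.39 to 3.66) higher than in the parent. GNAS, the stimulatory alpha subunit through which ADORA2A and ADORA2B signal, stood at 149, 197 and 209 RPKM, or 1.32-fold (1.25 to 1.39) and 1.40-fold (1.33 to 1.47). None of 7 measured genes known to respond to cyclic AMP passed 2-fold. In each comparison and direction between 1.39% and 5.33% of all genes did. DUSP1, a phosphatase and the highest of the 7, stood at 8.85, 14.8 and 11.6 RPKM, or 1.67-fold (1.26 to 2.23) in subclone 1 over the parent. Chosen after their values were seen, FOS stood at 7.74, 12.9 and 13.1 RPKM, with intervals above 1 in both subclones over the parent (1.24 to 2.24 and 1.27 to 2.28). PDE4B, which breaks down cyclic AMP, had a mean below 1 RPKM and so was not counted, with 1.499 RPKM in the parent, 0.0508 RPKM in subclone 1 and 0.442 RPKM in subclone 2 (log2 ratios to the parent of -3.41 and -1.56), and no whole reads were recovered for it. None of 5 other measured peptidase genes listed beside DPP4 (DPP3, DPP7, DPP8, DPP9 and PREP) passed 2-fold either, beside the same shares of all genes. DPP7, the highest of these 5, stood at 28.9, 40.5 and 34.1 RPKM.

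**Figure D4:**
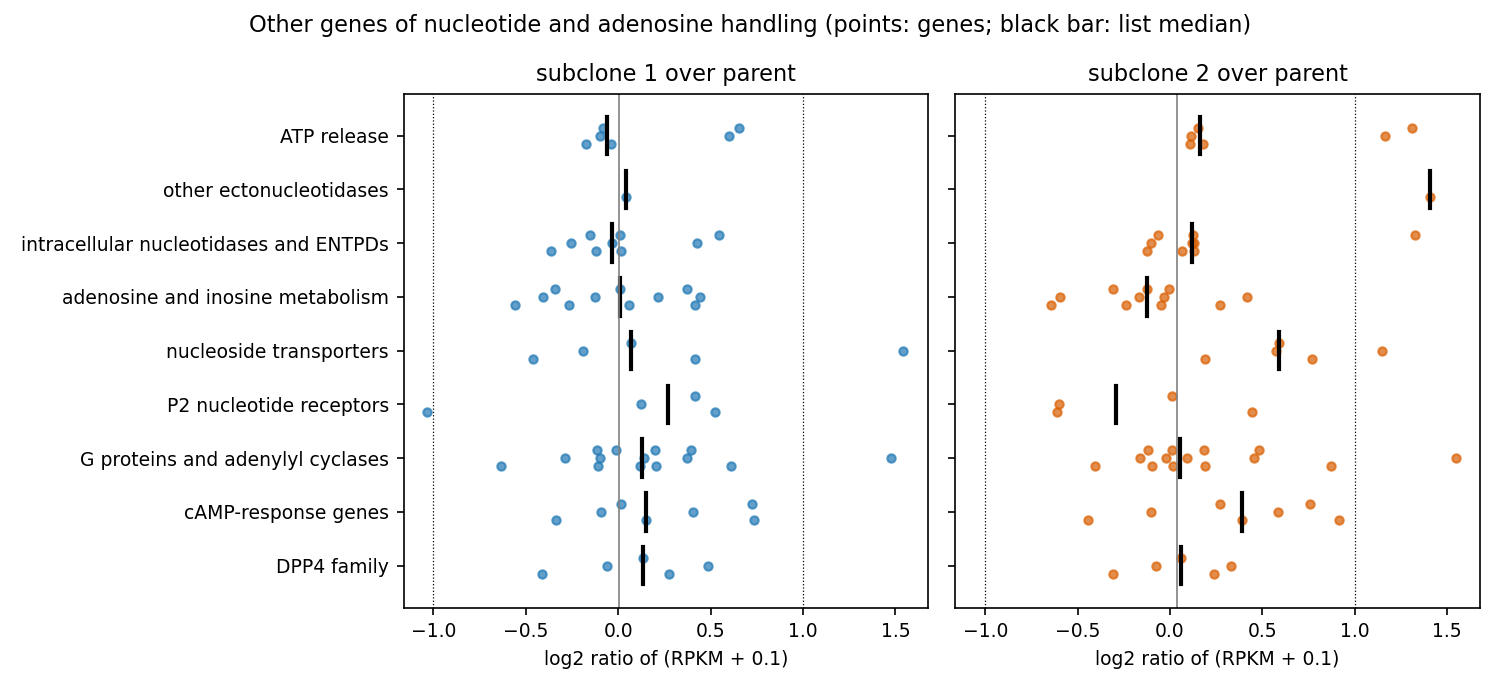
Log2 ratio of each gene of the pathway lists with a mean of at least 1 RPKM (points) in subclone 1 and in subclone 2 over the parent, with list medians as black bars, the median of all genes as a grey line and dotted lines at 2-fold. The nucleoside transporters have a median of 0.59 in subclone 2, and GNAI1 is the only G protein gene past 2-fold in each panel.

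Each of these genes was set beside the nearest genes on its chromosome with a mean of at least 1 RPKM, passing over the others. The gene named before or after it is the nearest such gene. Starts of the neighbours ran from 81745730 to 87674860 around NT5E and from 157736446 to 168861521 around DPP4. A median over such spans does not describe the locus alone. The 20 nearest measured genes of NT5E, 10 on each side, had median log2 ratios of 0.00144 for subclone 1 and -0.01 for subclone 2 over the parent. NT5E had 0.27 and 0.81. By log2 ratio none of the 20 passed 2-fold, where 4.90% and 5.33% of all genes were higher and 1.82% and 2.16% lower. RWDD2A came closest, at 0.98 for subclone 1 over the parent (2.489 RPKM in the parent and 4.999 RPKM in subclone 1). The measured gene before NT5E, KIAA1009 (start 84124250), stood at 1.99, 1.85 and 1.97 RPKM. The gene after NT5E, SNX14, a sorting nexin, stood at 15.6, 19.3 and 17.7 RPKM. The log2 ratio of NT5E for subclone 2 over the parent was higher than that of all 20 neighbours, of which the highest was 0.76. For subclone 1 over the parent NT5E, at 0.27, lay within the range of its neighbours, from -0.85 to 0.98.

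Around DPP4 the medians were -0.14 for subclone 1 and -0.36 for subclone 2 over the parent, beside 0.00426 and 0.0373 over all genes. Of the 20 neighbours 12 and 15 lay below 0, and with 5 on each side 5 and 7 of 10 did. Whether this differs from genes at large was not tested. DPP4 itself lay below all 20 neighbours, the lowest of which were -0.85 and -0.81. The gene before it, PSMD14, a subunit of the proteasome, stood at 73.8, 54.9 and 49.6 RPKM, and the gene after it, IFIH1, a sensor of double-stranded RNA, at 2.01, 2.65 and 3.64 RPKM, in the opposite order.

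ADORA2A, with log2 ratios of 0.35 and 1.39, had neighbour medians of 0.23 and 0.28. Of its 20 neighbours 3 were at least 2-fold higher in subclone 2 over the parent, beside 5.33% of all genes. UPB1, which follows ADORA2A, stood at 1.03, 1.60 and 1.86 RPKM. ADORA2B had neighbour medians of -0.04 and -0.04, with ZNF286A before it at 2.32, 2.07 and 1.83 RPKM and ZSWIM7 after it at 4.77, 6.27 and 8.85 RPKM. ADA had neighbour medians of 0.09 and 0.09, and YWHAB, which follows it, stood at 253, 251 and 250 RPKM.

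ENTPD1 had neighbour medians of 0.02 and -0.03, with TCTN3 before it at 15.2, 13.5 and 12.5 RPKM and ZNF518A after it at 2.82, 2.46 and 2.73 RPKM. ENTPD2, whose counts did not separate the lines, had neighbour medians of 0.26 and 0.23, and 16 and 17 of its 20 neighbours lay above 0. The genes directly on each side of it were lower in both subclones than in the parent. NPDC1 stood at 11.1, 5.19 and 4.79 RPKM, and C9orf140 at 23.8, 14.8 and 15.9 RPKM.

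**Figure D5:**
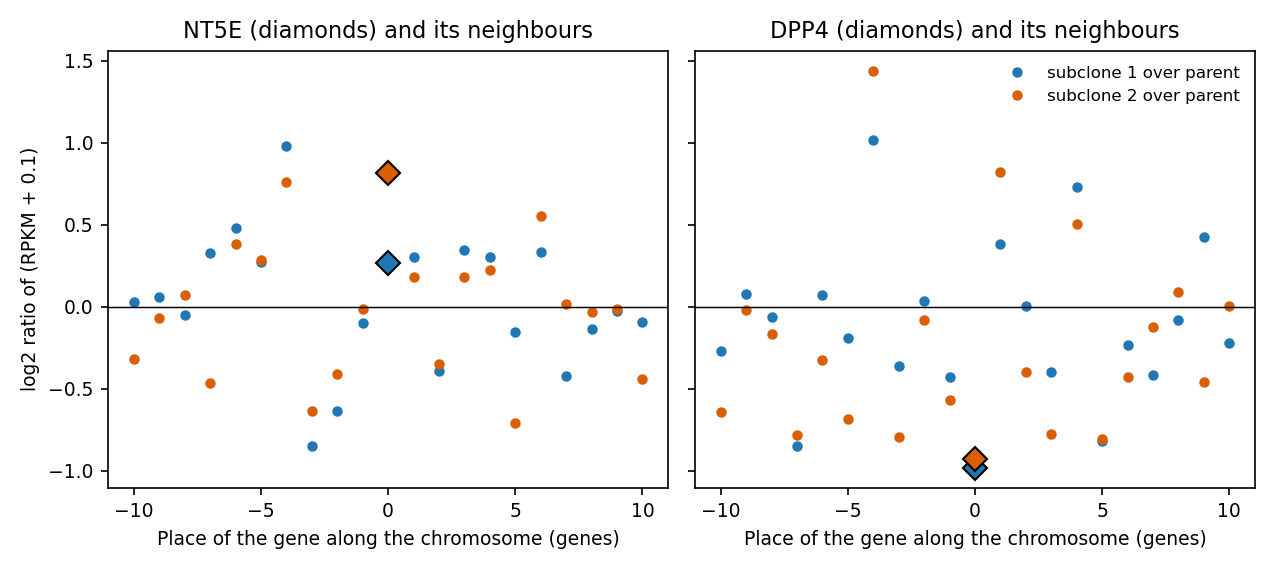
Log2 ratio to the parent of NT5E and DPP4 (diamonds) and of the 10 nearest measured genes on each side (points), by their place along the chromosome, for both subclones. NT5E in subclone 2 lies above its 20 neighbours at 0.81, and DPP4 lies below its neighbours at -0.98 and -0.93.

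The genes whose pattern was most like that of NT5E were found by the distance between pairs of log2 ratios, subclone 1 and subclone 2 each over the parent, which are 2 numbers from 3 libraries. The closest were SP4 (distance 0.0291), MGC50722 (0.0313), LGR4 (0.0338), PICK1 (0.0432) and CCRL2 (0.0529). LGR4, a receptor for R-spondins, stood at 19.9, 24.6 and 35.2 RPKM, and the other four were below 4 RPKM in every library. With 38 genes within a distance of 0.1, this likeness does not single out any gene.

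The library of the parent held 4488825 reads, that of subclone 1 held 4609696 reads and that of subclone 2 held 4725150 reads, as recovered from the RPKM. Markers of other cell types known to carry CD73 or CD39 were in part near 0 and in part expressed. CLDN5 was listed in no library and CDH5 had at most 1 read for endothelium, CD3E was listed in none and PTPRC had at most 1 read for leukocytes, and PDGFRB and FAP were listed in none for fibroblasts. The summed levels of the lists were 5.11, 11.9 and 7.61 RPKM for the 6 endothelial genes in the parent, subclone 1 and subclone 2, mostly from PECAM1, which was highest in subclone 1 at 9.81 RPKM, and 15.7, 31.2 and 24.3 RPKM for the 8 fibroblast genes, mostly from LUM, at 10.1, 24.0 and 21.003 RPKM. KDR, a receptor of endothelial growth factor, stood at 1.36, 1.93 and 3.08 RPKM, or 2.26-fold (1.52 to 3.41) in subclone 2 over the parent. Of the matrix genes, DCN stood at 0.773, 4.42 and 2.75 RPKM, and COL3A1 went the other way, at 4.42, 2.21 and 0.463 RPKM. The 6 leukocyte genes summed to 76.2, 114 and 101 RPKM, nearly all from CD68, a lysosomal protein that many cultured lines express. The part of the PECAM1, KDR, LUM, DCN, COL3A1 and CD68 differences in the results above was not tested.

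The 10 hepatocyte markers summed to 24.6, 112 and 106 RPKM. ALB, at 2.46, 49.5 and 68.8 RPKM, was the highest of them in both subclones, whereas HNF4A was highest in the parent. ALB was 20.1-fold higher in subclone 1 and 28.0-fold higher in subclone 2 than in parental cells, from 25, 517 and 736 reads. APOB stood at 0.300, 1.23 and 4.17 RPKM, FGB at 1.66, 14.5 and 5.60 RPKM, and TF at 5.71, 30.3 and 5.88 RPKM, so that TF was high in subclone 1 alone. AFP stood at 2.41, 4.16 and 4.27 RPKM. HNF4A, a transcription factor of hepatocytes, was present at 11.7, 11.9 and 16.0 RPKM, while GPC3 was listed in no library and TTR, APOA1 and SERPINA1 had at most 4 reads, so the labelled HCC identity was borne out by some of its markers only. In bulk RNA a smaller share of expressing cells and less RNA per cell cannot be told apart, and this holds for each level given here.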

How the data were processed

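The 3 libraries of messenger RNA, 1 per cell line, were prepared by the authors from Trizol-extracted RNA with an Illumina TruSeq kit and mapped to hg19 per the labels. The aligner, the counting tool, the annotation and the handling of strand are not given in the sources used here. The authors deposited RPKM values by Entrez number and symbol, listing only genes above 0, and absent genes were taken as 0.

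Ratios are log2 of (RPKM + 0.1), over genes with a mean of at least 1 RPKM. Folds are ratios of RPKM. Whole reads were recovered from the RPKM, since the reads of a gene are its RPKM times a common length and the library total. Library totals rest on 653 and 625 genes whose reads were equal in the parent and a subclone, and on the step of 2169 low genes (86.8% on it). The smallest length that gave whole reads was taken where it was at least 0.5 times the median GENCODE 29 transcript, otherwise a multiple within 10% of a transcript, and none over 3 times the longest, a rule revised after values were seen. It resolved 11331 of the 11370 genes. A gene whose reads have a common divisor may be given too few, with intervals then too wide. Where a multiple was taken, a gene may be given too many, with intervals then too narrow.

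Members and lists were chosen with earlier results of these data known. The pairs of members compared as ratios were not part of the plan. Named were all 8 members, list genes past 2-fold between any 2 libraries and the highest of each list, the 5 genes most like NT5E, and immediate neighbours by RefSeq GRCh38.p14 (99.4% of genes found). Alternatives were other pseudocounts, scalings, filters, folds and neighbour numbers. Python 3.11.15 and scipy 1.17.1 were used.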

Additional observations from a re-analysis of the deposited data

How the results depend on the processing

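No log2 ratio of the 7 listed genes with an interval that excluded 1 changed sign under any alternative, and all 147 alternative values of these ratios lay within the counting interval of the reported one. The log2 ratio of NT5E to the parent lay between 0.14 and 0.29 in subclone 1 and between 0.78 and 0.88 in subclone 2, and that of one subclone to the other between 0.51 and 0.67. Division by ACTB moved the median of all genes by -0.13 for subclone 1 over the parent and by 0.12 for subclone 2 over subclone 1, and division by GAPDH moved the last by 0.12. The numbers of genes at least 2-fold different followed the settings. Subclone 1 had 557 genes higher and 207 lower than the parent, against 347 and 117 with a pseudocount of 1, 1523 and 884 with no filter, 233 and 71 for a mean RPKM of 5 or more, and 1317 and 848 when 1.5-fold sufficed. Subclone 2 had 606 higher and 246 lower than the parent, against 380 and 150, then 1553 and 941, then 253 and 93, then 1444 and 830 under the same settings. Subclone 2 had 161 higher and 158 lower than subclone 1, against 80 and 77, then 842 and 902, then 43 and 46, then 540 and 467. Division by ACTB gave 328 lower in subclone 1 over the parent. The share of higher among the 2-fold genes was 72.9% for subclone 1 over the parent and 57.8% with ACTB, and 50.5% for subclone 2 over subclone 1, 64.0% with ACTB and 62.6% with GAPDH. With 5 neighbours on each side the medians to the parent were 0.09 and 0.08 around NT5E and -0.09 and -0.49 around DPP4, for subclone 1 and subclone 2. No paired analysis was possible because every line has a single library, which also means that none could be left out. Read number limited ADORA2A, ENTPD2 and ADORA2B, which had 12 to 51 reads.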
